A study of Homo sapiens with 15 samples.

Results

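In cells made to switch on CD4, 8 bystander genes, that is, genes other than the one the guides were aimed at, are described here: RCN3, SSUH2, DNAH9, CRLF2, SCARA5, MYOZ2, PLEKHS1 and SLCO4A1-AS1. They are 8 of the 58721 annotated genes in the deposited tables. They were chosen by their expected counts and TPM in these same libraries, which were much higher with guides than without, with either of 2 activation domains, and they lie away from CD4. The rule states no numerical threshold. The differences between guides and no guides are therefore a description of how the genes were chosen and carry no test.

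RNA was sequenced from 5 lines of the human melanoma line MelJuSo, each with 3 libraries (replicates A, B and C). The VP64 guide line carried 5xALFA-dCas12a-VP64, nanobody-VP64 and a cassette of 3 guides against CD4, and the p65 guide line carried 5xALFA-dCas12a-VP64, nanobody-p65 and the same cassette. The VP64 line without guides and the p65 line without guides held the same proteins but no cassette. The line without an activation domain held 5xALFA-dCas12a, the nanobody alone and no guides. All 5 lines share dCas12a with its tag and a nanobody, and both VP64 and p65 nanobody lines also carry VP64 on dCas12a itself. The labels do not say whether a line is a clone or a pool, or whether its 3 libraries came from separate cultures. Each condition is held by 1 line, so guides and any other difference between lines cannot be told apart, and the p-values reflect only how these libraries vary.

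In this kind of gene activation a nuclease-dead Cas12a is brought to DNA by a guide RNA next to a T-rich motif, and proteins fused to it recruit the transcription machinery. ALFA is a short peptide tag that a nanobody binds, so a repeated tag can load several nanobodies. VP64 is a repeat of a herpesvirus activation peptide, and p65 is the activating part of the NF-kB subunit RELA. The 8 genes have no shared pathway. RCN3 is a calcium-binding protein of the endoplasmic reticulum, CRLF2 and SCARA5 are cell surface receptors, DNAH9 is a motor protein of motile cilia and MYOZ2 is a muscle protein. PLEKHS1 and SSUH2 are less well characterised, and SLCO4A1-AS1 is a long noncoding RNA.

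Expected counts, the reads per gene estimated by RSEM, summed to between 15643705 and 23072512 per library. CD4 averaged 1895 ± 68.7 CPM in the VP64 guide line, 2063 ± 115 in the p65 guide line, 8.83 ± 0.541 in the VP64 line without guides and 10.6 ± 0.563 in the p65 line without guides, with 3.20 ± 1.72 where no activation domain was present (SD, n = 3). In these bulk libraries, fewer cells with a transcript and less of it per cell cannot be told apart. CPM is the count per 1e+06 counts, scaled for library size and composition. The melanocytic marker SOX10 lay between 122 and 237 TPM in all libraries, and MLANA, another melanocytic marker, was near 0. The summed level of 11 melanocytic markers moved with the guides. It was 471 to 565 TPM in the VP64 guide line and 333 to 443 TPM in the p65 guide line, against 253 to 278 TPM in the VP64 line without guides, 225 to 247 TPM in the p65 line without guides, with 259 to 265 TPM where no activation domain was present. By median over the 15 libraries its largest parts were SOX10, S100B (34.9 to 195 TPM) and S100A1 (19.3 to 72.4 TPM). How each of the other markers moved was not examined, so the sum does not show a rise of each. The part of this sum in the values below was not tested.

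Sequences upstream of the genes were taken from RefSeq (GRCh38.p14), as windows from 250 bases before to 50 after an annotated start. Such windows were at hand for 6 of the 8 genes, 9 windows in all, but not for CRLF2 and SCARA5. Shown are 2 that are rich in CpG dinucleotides, 1 that is poor in them, and that of the antisense RNA, because the genes differ widely in this respect. Capitals mark matches on either strand. The motifs searched were the TATA box, which is written TATAAA and has no match in the windows shown, the CCAAT box, the GC box, which is written GGGCGG, the AP-1 site, which is written TGAGTCA, and the E-box, which is written CACGTG. Adjoining capitals can hold overlapping matches.
RCN3, chr19:49527753-49528052, plus strand: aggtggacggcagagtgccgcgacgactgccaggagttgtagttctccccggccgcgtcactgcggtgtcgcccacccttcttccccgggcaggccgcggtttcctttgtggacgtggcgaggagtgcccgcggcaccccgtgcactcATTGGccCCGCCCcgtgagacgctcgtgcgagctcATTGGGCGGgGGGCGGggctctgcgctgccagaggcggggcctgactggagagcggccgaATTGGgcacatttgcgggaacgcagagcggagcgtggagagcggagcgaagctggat
DNAH9, chr17:11598220-11598519, plus strand: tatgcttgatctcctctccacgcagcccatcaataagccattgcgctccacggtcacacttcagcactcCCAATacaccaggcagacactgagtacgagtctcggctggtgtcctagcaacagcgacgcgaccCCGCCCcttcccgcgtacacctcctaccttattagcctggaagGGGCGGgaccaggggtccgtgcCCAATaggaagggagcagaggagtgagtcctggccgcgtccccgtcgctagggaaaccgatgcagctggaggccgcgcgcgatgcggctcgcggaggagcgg
MYOZ2, chr4:119135582-119135881, plus strand: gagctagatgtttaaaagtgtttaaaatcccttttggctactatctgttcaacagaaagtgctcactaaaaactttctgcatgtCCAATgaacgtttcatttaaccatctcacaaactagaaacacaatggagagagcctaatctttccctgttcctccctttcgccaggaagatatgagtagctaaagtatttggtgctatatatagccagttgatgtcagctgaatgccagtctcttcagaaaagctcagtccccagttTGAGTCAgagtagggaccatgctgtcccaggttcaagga
SLCO4A1-AS1, chr20:62666572-62666871, minus strand: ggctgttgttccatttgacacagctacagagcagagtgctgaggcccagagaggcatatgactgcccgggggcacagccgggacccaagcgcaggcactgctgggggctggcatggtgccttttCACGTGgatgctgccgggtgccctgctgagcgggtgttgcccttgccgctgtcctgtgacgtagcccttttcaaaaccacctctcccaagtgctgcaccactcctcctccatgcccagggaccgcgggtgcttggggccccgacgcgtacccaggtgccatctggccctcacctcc

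The RCN3 window holds 34 CpG dinucleotides, more than 84.4% of all 35116 RefSeq windows of this length, with 3 CCAAT and 3 GGGCGG matches. The first DNAH9 window holds 26 CpG, with 2 matches to each of these motifs. The MYOZ2 window holds 2 CpG, 1 CCAAT and 1 TGAGTCA match, and the SLCO4A1-AS1 window holds 13 CpG and 1 CACGTG match. The median over all windows is 14 CpG. Matches were found in 11.5% of all windows for TATAAA, 34.6% for CCAAT, 45% for GGGCGG, 4.95% for TGAGTCA and 7.26% for CACGTG. The T-rich Cas12a motif (TTT followed by A, C or G, on either strand) had 18 matches in the MYOZ2 window, 3 in the RCN3 window, 1 in the first DNAH9 window and 4 in the SLCO4A1-AS1 window. It is present in 95.4% of all windows, with a median of 6. The matches describe letters in these windows and are not evidence of binding.

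RCN3 (ENSG00000142552.7, hg38, chr19:49527618-49546962, plus strand) encodes reticulocalbin 3, an EF-hand protein of the secretory pathway, and was the most abundant of the 8. In the VP64 guide line it had 210, 208 and 193 CPM in replicates A, B and C, against 17.5, 15.2 and 17.0 CPM in the VP64 line without guides. In the p65 guide line it had 395, 410 and 375 CPM, against 20.2, 17.1 and 18.3 CPM in the p65 line without guides. Without an activation domain it had 15.3, 16.1 and 16.5 CPM. The guide libraries thus stood far from the other 9, which lay within a few CPM of each other. The log2 fold change, guides over no guides, was 3.62 (SE 0.061) with VP64 and 4.41 (SE 0.060) with p65, or 12.3-fold and 21.3-fold. The mean annotated length of the transcripts that carried its counts was 1838 ± 14.6 bases in the VP64 guide line and 1795 ± 111 bases in the VP64 line without guides (SD, n = 3, exact 2-sided permutation p = 1). In the p65 lines it was 1839 ± 6.88 bases with guides and 1774 ± 109 bases without (SD, n = 3, exact 2-sided permutation p = 0.4). RCN3 is 1 of 2 among the 8 genes whose p65 guide effect differed from the VP64 guide effect, as given further on.

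CRLF2 (ENSG00000205755.11, hg38, chrX:1187549-1212750, minus strand) encodes a chain of the receptor for the cytokine TSLP, which pairs with the IL-7 receptor alpha chain and signals through JAK kinases and STAT5. It lies in the pseudoautosomal region, and the entry for the Y copy held no counts. CRLF2 had 1.10, 1.497 and 1.52 CPM in the VP64 guide line, against 0.205, 0.410 and 0 CPM in the VP64 line without guides. It had 3.47, 3.97 and 3.75 CPM in the p65 guide line, against 0.0509, 0.260 and 0.176 CPM in the p65 line without guides. Without an activation domain it had 0.109, 0.145 and 0.130 CPM. These low values stand for 17, 29 and 24 counts in the VP64 guide line, 63, 67 and 76 counts in the p65 guide line and at most 8 counts in any other library. As log2 fold change, guides over no guides, this was 2.69 with VP64 and 4.47 with p65. The VP64 value was 3.65 without replicate B of the VP64 line without guides, which held 8 of the 12 counts of that line. Myeloid cells are among those known to express CRLF2, and the summed level of 6 hematopoietic and myeloid markers also moved with the guides. They summed to 111 to 114 TPM in the VP64 guide line against 79.7 to 85.3 TPM in the VP64 line without guides, and to 97.6 to 110 TPM in the p65 guide line against 68.0 to 75.1 TPM in the p65 line without guides, with 67.2 to 76.7 TPM where no activation domain was present. Most of that sum was CD68, at 42.0 to 101 TPM, a lysosomal protein gene that other cells express too, and none of the 6 was at 0 in any library. How each of the other markers moved was not examined, so the sum does not show a rise of each. Their part in the CRLF2 values was not tested.

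SCARA5 (ENSG00000168079.16, hg38, chromosome 8, 27869882 to 27992727, minus strand) encodes a scavenger receptor that binds and takes up ferritin. It had 4.70, 5.47 and 6.38 CPM in the VP64 guide line, against 0.563, 0.665 and 0.590 CPM in the VP64 line without guides. It had 3.14, 3.79 and 2.22 CPM in the p65 guide line, against 0.662, 0.676 and 0.792 CPM in the p65 line without guides. The line without an activation domain, at 1.53, 2.08 and 1.57 CPM, lay between the guide and the no-guide libraries and overlapped neither. As log2 fold change, guides over no guides, this was 3.17 with VP64 and 2.08 with p65. Mean transcript length was 3662 ± 240 bases in the VP64 guide line and 3172 ± 250 bases in the VP64 line without guides (SD, n = 3, exact 2-sided permutation p = 0.1, the smallest that 3 against 3 libraries can give). In the p65 lines it was 3748 ± 73.1 bases with guides and 3613 ± 393 bases without, and these overlapped (SD, n = 3, exact 2-sided permutation p = 0.7). Fibroblasts are known to express SCARA5, and 8 fibroblast markers summed to 6.64 to 8.11 TPM in the VP64 guide line and 10.5 to 12.3 TPM in the p65 guide line. They summed to 3.64 to 5.55 TPM in the VP64 line without guides, 4 to 8.53 TPM in the p65 line without guides and 2.94 to 4.27 TPM where no activation domain was present. COL1A1 was the most abundant of them by its median and THY1 was at 0 in 14 libraries. The part of these markers in the result was not tested.

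DNAH9 (ENSG00000007174.17, hg38, chr17:11598431-11969748, plus strand) encodes a heavy chain of the outer dynein arms that drive motile cilia. It is the gene nearest to 0 without guides. Its counts were 19, 26 and 23 in the VP64 guide line against 1, 1 and 0 in the VP64 line without guides, and 51, 38 and 35 in the p65 guide line against 1, 1 and 1 in the p65 line without guides. Without an activation domain it had 3, 2 and 9 counts. With so few counts the size of the difference is poorly set. The ratio of depth-scaled counts was 38.8 in the VP64 lines, with an exact 95% interval of 10.3 to 327, and 45.8 in the p65 lines, with an interval of 15.3 to 225. These intervals cover counting error only. The summed level of markers of multiciliated cells did not move with DNAH9. It was 5.17 to 6.44 TPM in the VP64 guide line and 5.05 to 5.47 TPM in the p65 guide line, against 5.44 to 7 TPM and 4.80 to 5.70 TPM without guides. Among these markers, TEKT1 was at 0 in all 15 libraries.

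MYOZ2 (ENSG00000172399.5, hg38, chr4:119135784-119187789, plus strand) encodes calsarcin-1, a protein of the Z-disc of heart and slow muscle that binds alpha-actinin and calcineurin. It had 1.61, 2.58 and 1.33 CPM in the VP64 guide line, against 0.512, 0.102 and 0.322 CPM in the VP64 line without guides. It had 2.04, 1.90 and 0.740 CPM in the p65 guide line, against 0.102, 0.208 and 0.220 CPM in the p65 line without guides. Where no activation domain was present it had 2.02, 0.869 and 1.44 CPM. That line therefore held as much MYOZ2 RNA as the guide lines, and its libraries overlapped those of both. The log2 fold change, guides over no guides, was 2.55 with VP64 and 3.07 with p65. Over the line without an activation domain it was 0.38 (SE 0.395) for the VP64 guide line and 0.11 (SE 0.401) for the p65 guide line. The 10 striated muscle markers summed to at most 3.72 TPM in any library, and none reached 1 TPM in all 3 libraries of a line.

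PLEKHS1 (ENSG00000148735.14, hg38, chr10:113751454-113783429, plus strand) encodes a protein with a pleckstrin homology domain, a fold that often binds phosphoinositide lipids. It had 1.87, 1.70 and 2.27 CPM in the VP64 guide line, against 0.205, 0.256 and 0.536 CPM in the VP64 line without guides. It had 0.935, 1.01 and 0.986 CPM in the p65 guide line, against 0.204, 0.104 and 0.352 CPM in the p65 line without guides. The line without an activation domain had 1.03, 0.821 and 0.739 CPM, within the reach of the p65 guide line and below the VP64 guide line. Guides over no guides, its log2 fold change was 2.53 with VP64 and 2.08 with p65.

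SSUH2 (ENSG00000125046.14, hg38, chr3:8619400-8745040, minus strand) encodes a protein named after its nematode homologue ssu-2. It had 8.63, 8.73 and 9.10 CPM in the VP64 guide line, against 1.69, 0.768 and 1.07 CPM in the VP64 line without guides. It had 20.02, 25.3 and 20.6 CPM in the p65 guide line, against 0.916, 0.780 and 1.01 CPM in the p65 line without guides. The line without an activation domain had 0.272, 0.628 and 0.435 CPM, the lowest of the 5. Guides over no guides, its log2 fold change was 2.90 with VP64 and 4.59 with p65. Mean transcript length was 1320 ± 38.2 bases in the VP64 guide line and 1085 ± 158 bases in the VP64 line without guides, with no overlap (SD, n = 3, exact 2-sided permutation p = 0.1). In the p65 lines it was 1353 ± 76.7 bases with guides and 1552 ± 493 bases without, and these overlapped (SD, n = 3, exact p = 0.7). CAV3, a caveolin gene that lies inside SSUH2 on the other strand, had 1 count over the 15 libraries.

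SLCO4A1-AS1 (ENSG00000232803.1, hg38, chr20:62663019-62666724, minus strand) is a noncoding RNA opposite SLCO4A1, which encodes an organic anion transporter. It shares 346 of its 1534 exon bases with SLCO4A1, and since nothing used here states the strandedness of the libraries, its counts are uncertain. It had 2.00, 3.41 and 3.16 CPM in the VP64 guide line, against 0.256, 0.205 and 0.268 CPM in the VP64 line without guides. It had 1.21, 0.948 and 0.395 CPM in the p65 guide line, against 0.153, 0.208 and 0.132 CPM in the p65 line without guides. The line without an activation domain had 1.47, 1.304 and 1.78 CPM, above every p65 guide library. The log2 fold change, guides over no guides, was 3.53 with VP64 and 2.32 with p65. SLCO4A1 itself, which is far more abundant, had 52.1, 52.5 and 47.8 CPM in the VP64 guide line and 42.2, 40.3 and 45.6 CPM in the VP64 line without guides (log2 fold change 0.25, SE 0.065, adjusted p = 0.0032). In the p65 lines it had 51.3, 48.1 and 47.7 CPM with guides and 41.7, 43.1 and 49.7 CPM without (0.13, SE 0.064, adjusted p = 0.127). Without replicate C of the p65 line without guides that value was 0.22 and passed.

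**Figure D1:**
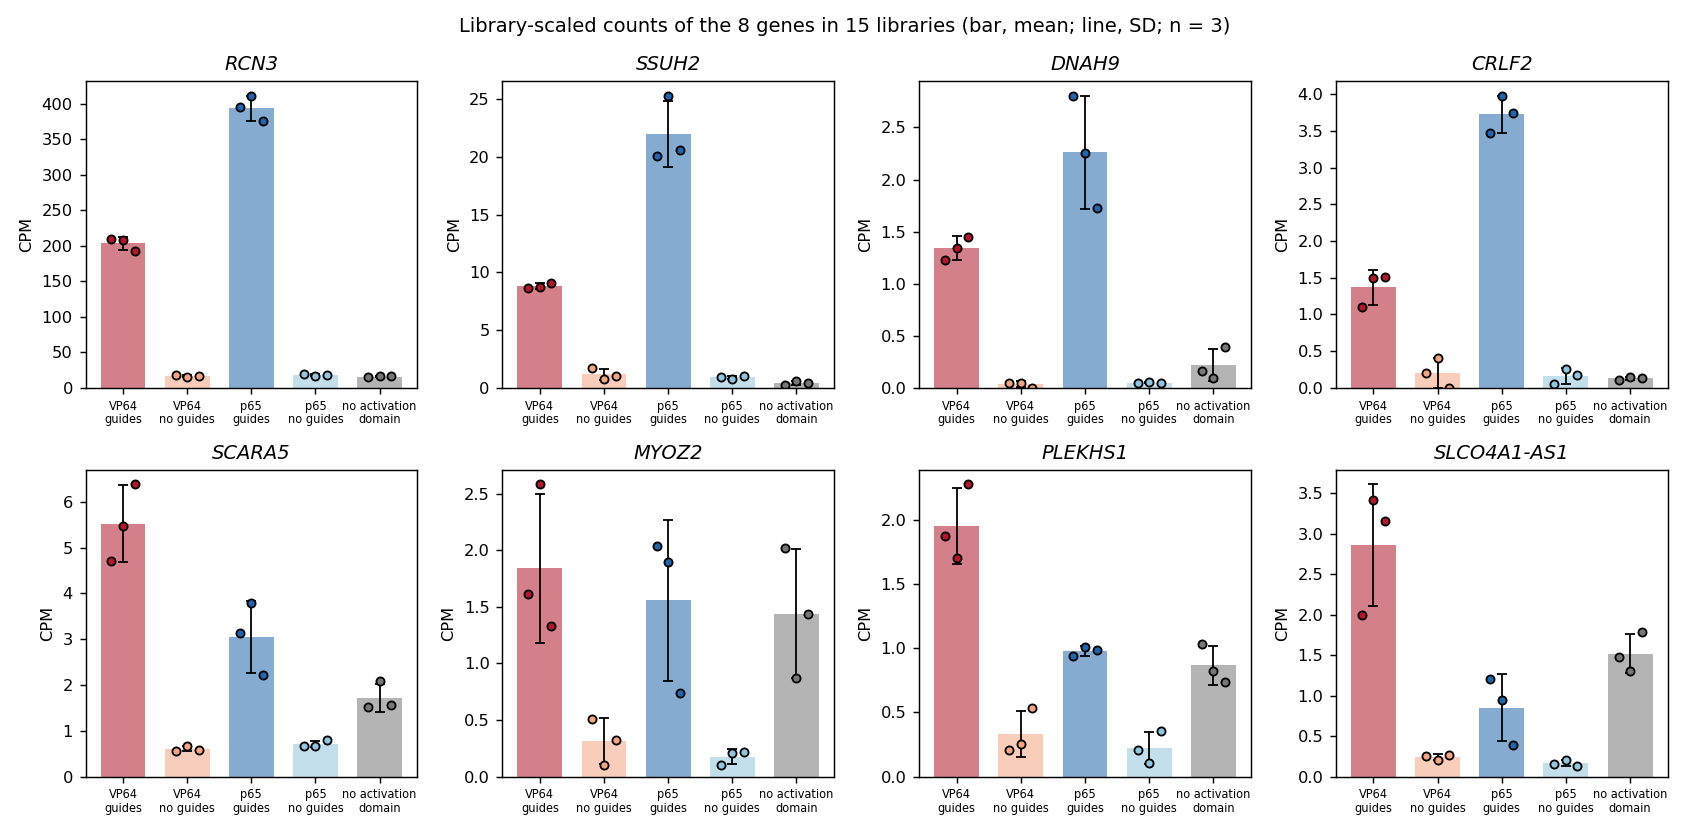
CPM (vertical axis, from 0, each panel with its own scale) of the 8 genes in the 5 lines, with points for the 3 libraries, bars for their mean and lines for the SD. The guide libraries stand above their no-guide libraries in every panel, as the choice of genes requires, and for MYOZ2 the line without an activation domain, at 0.869 to 2.02 CPM, is level with the guide lines.

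Per length, as TPM, the genes spanned a wide range of levels with guides. In the VP64 guide line RCN3 averaged 169 ± 5.77 TPM, SSUH2 11.2 ± 0.896 and SLCO4A1-AS1 7.55 ± 1.94, and the other 5 lay between 1.02 and 2.07 TPM (SD, n = 3). In the p65 guide line RCN3 averaged 322 ± 16.4 TPM, SSUH2 26.7 ± 5.65 and CRLF2 3.72 ± 0.225, and the other 5 lay between 0.46 and 2.06 TPM (SD, n = 3). Apart from RCN3, SSUH2 and, in the VP64 guide line, SLCO4A1-AS1, the genes thus averaged 3.72 TPM or less even with guides. All 8 passed the low-count filter, but DNAH9 and CRLF2 would not have passed it on the 9 libraries without guides. Among all 14961 genes tested, 2.36% with VP64 and 2.2% with p65 were at least 2-fold higher with guides and past the threshold, an adjusted p of 0.05. All 8 genes met both conditions, which a choice for a strong rise favours, so this adds no support.

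The lines without guides were then set against the line without an activation domain, which asks what the activation domains change when no guide is present. In both comparisons 5 of the 8 genes were lower with an activation domain, namely DNAH9, SCARA5, MYOZ2, PLEKHS1 and SLCO4A1-AS1. In the VP64 line without guides 1 gene was higher and 5 were lower, where 23.6% and 24% of all genes tested were called. In the p65 line without guides 2 were higher and 5 were lower, where 24.7% and 24.9% were called. DNAH9 and CRLF2 passed the low-count filter only through the guide libraries. Fitted on the compared lines alone they are not tested, and 4 of the other 6 were lower in both comparisons, with 1 higher for VP64 and 2 higher for p65. The median log2 fold change of the 8 genes was -1.43 with VP64 and -1.58 with p65. The libraries without guides also served as the low side of the contrasts that chose the genes, so a choice for a strong rise favours low values in them. These p-values are therefore not independent of the choice. Both comparisons share the libraries of the line without an activation domain.

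SLCO4A1-AS1 had the largest falls, by 2.62 (log2) in the VP64 line without guides (SE 0.418, edgeR adjusted p = 2.19e-05) and by 3.18 in the p65 line without guides (SE 0.444, adjusted p = 3.71e-06). MYOZ2 fell by 2.17 with VP64 (SE 0.503, adjusted p = 0.00112) and by 2.96 with p65 (SE 0.548, adjusted p = 0.000115). For SLCO4A1-AS1 and MYOZ2, no library of either line without guides reached the lowest one of the line without an activation domain. The same was true of SCARA5, PLEKHS1 and DNAH9. For DNAH9 it rests on at most 1 count per library in either line without guides, against 2 to 9 in the line without an activation domain. The share of all genes tested that separated in this way was not computed, and the choice of genes favours it. SCARA5 fell by 1.5 with VP64 (SE 0.283, adjusted p = 0.000153) and by 1.27 with p65 (SE 0.272, adjusted p = 0.000522). PLEKHS1 fell by 1.36 with VP64 (SE 0.412, adjusted p = 0.00919) and by 1.90 with p65 (SE 0.434, adjusted p = 0.000948). The VP64 call of PLEKHS1 was lost without replicate A of the VP64 line without guides (-1.10, adjusted p = 0.0547). SLCO4A1 also fell, by 0.84 with VP64 and 0.77 with p65 (SE 0.062 and 0.061, adjusted p = 3.42e-10 and 1.06e-09). Its part in the values of the overlapping SLCO4A1-AS1 was not tested.

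DNAH9 was called in both comparisons on very few counts, and it was tested only because the guide libraries carried it past the low-count filter. With the compared lines alone it is not tested. It had 2 counts in the VP64 line without guides against 14 in the line without an activation domain, a ratio of 0.155 with an exact 95% counting interval of 0.0171 to 0.675. It had 3 counts in the p65 line without guides, a ratio of 0.220 with an interval of 0.0405 to 0.787. The edgeR adjusted p was 0.0155 with VP64 and 0.0268 with p65. The VP64 call was lost without replicate C of the VP64 line without guides (adjusted p = 0.0653) and without replicate C of the line without an activation domain (adjusted p = 0.177), which held 9 of the 14 counts. The p65 call was lost without any single library of the p65 line without guides, without the same replicate C, and with DESeq2 (adjusted p = 0.0602, 0.0585, 0.0741, 0.281 and 0.0561).

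SSUH2 moved the other way. It rose by 1.37 on the log2 scale in the VP64 line without guides (SE 0.324, adjusted p = 0.00132) and by 1.0 in the p65 line without guides (SE 0.337, adjusted p = 0.0174). The p65 call was lost without replicate C of the p65 line without guides (0.91, adjusted p = 0.0623), and without replicate A (0.79, adjusted p = 0.0786) or C (0.98, adjusted p = 0.0503) of the line without an activation domain. RCN3 rose by 0.21 with p65 (SE 0.072, adjusted p = 0.018), a call lost without replicate A of either line (0.16 and 0.19, adjusted p = 0.105 and 0.0623). With VP64, RCN3 differed by 0.05 (SE 0.074, adjusted p = 0.613). CRLF2 did not pass, with 0.66 for VP64 (SE 0.718, adjusted p = 0.479) and 0.32 for p65 (SE 0.744, adjusted p = 0.753).

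Set against the line without an activation domain, the guide lines were not uniformly higher. In the VP64 guide line 7 of the 8 genes had all 3 libraries above all 3 of the line without an activation domain, as did 28.7% of all genes tested, and MYOZ2 overlapped. In the p65 guide line 5 genes did so, as did 28.9% of all genes tested, MYOZ2 and PLEKHS1 overlapped, and SLCO4A1-AS1 lay wholly below, as did 31% of all genes. The guide libraries were used by the rule, so these values are a description. The log2 fold change over the line without an activation domain was 4.27 for SSUH2, 3.67 for RCN3 and 3.35 for CRLF2 in the VP64 guide line. In the p65 guide line it was 5.59 for SSUH2, 4.62 for RCN3 and 4.79 for CRLF2. DNAH9 stood at 2.55 in the VP64 guide line and 3.30 in the p65 guide line, and SCARA5 at 1.68 and 0.81. PLEKHS1 stood at 1.17 and 0.18, and SLCO4A1-AS1 at 0.91 and -0.86.

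**Figure D2:**
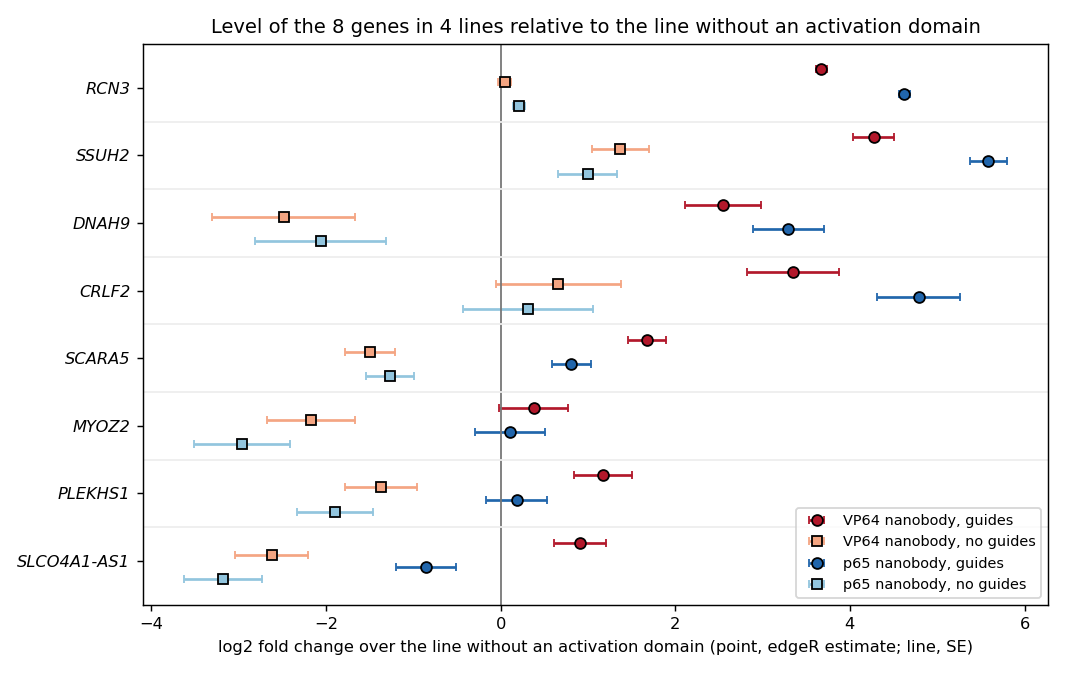
Log2 fold change (horizontal axis) of each gene in 4 lines over the line without an activation domain, with circles for guide lines, squares for lines without guides and lines for the SE. For SSUH2, RCN3 and CRLF2 every point is above 0, while for DNAH9, SCARA5, MYOZ2, PLEKHS1 and SLCO4A1-AS1 the squares lie between -1.27 and -3.18.

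The p65 nanobody was set against the VP64 nanobody, which asks whether the second activation domain matters. Without guides, none of the 8 genes passed the threshold in edgeR or in DESeq2, where 2.11% of all genes tested passed in edgeR. RCN3 alone had an unadjusted p under 0.05 in edgeR (log2 fold change 0.16, SE 0.073, adjusted p = 0.308). With guides, 3 genes were higher in the p65 line, where 3.72% of all genes were called, and 2 were lower, where 4.2% were called. The guide libraries of both lines were used by the rule, though not this contrast, so these p-values are not independent of the choice.

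RCN3 was higher with p65 by 0.95 (log2; SE 0.048, adjusted p = 1.24e-11), SSUH2 by 1.32 (SE 0.144, adjusted p = 2.48e-06) and CRLF2 by 1.43 (SE 0.340, adjusted p = 0.00954). In these 3 genes, and in DNAH9, which did not pass, every p65 guide library lay above every VP64 guide library. The reverse held for SCARA5, SLCO4A1-AS1 and PLEKHS1, where every VP64 guide library lay above every p65 guide library. The share of all genes tested that separated in either direction was not computed, so this is a description. SLCO4A1-AS1 was lower with p65 (-1.76, SE 0.330, adjusted p = 0.00129), as was SCARA5 (-0.86, SE 0.207, adjusted p = 0.0103). The SCARA5 call was lost without replicate C of the VP64 guide line (-0.75, adjusted p = 0.0506) or replicate C of the p65 guide line (-0.67, adjusted p = 0.0794). CRLF2 passed the low-count filter only through the guide libraries. Its edgeR call was lost with an offset for transcript length (1.38, adjusted p = 0.108). DNAH9 (0.75, SE 0.325, adjusted p = 0.187), PLEKHS1 (-0.99, SE 0.329, adjusted p = 0.0706) and MYOZ2 (-0.27, SE 0.397, adjusted p = 0.772) did not pass.

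The test of the difference itself, the guide effect with p65 minus the guide effect with VP64, called 2 of the 8 genes, where 0.956% of all genes tested were called. The rule used both guide effects, though not their difference, so the p-values below are not independent of the choice. For RCN3 the guide effect was larger with p65, by a log2 difference of 0.79 (SE 0.087, adjusted p = 1.56e-05), or 1.73-fold. The guide effect on SSUH2 was larger with p65 by 1.69 (SE 0.316, adjusted p = 0.00731), or 3.22-fold. The SSUH2 call was lost without replicate A of the VP64 line without guides (1.33, adjusted p = 0.0692), which held 33 of the 68 counts of that line. For CRLF2 the difference was 1.78 (SE 0.785, adjusted p = 0.383), for SCARA5 -1.10 (SE 0.386, adjusted p = 0.221) and for SLCO4A1-AS1 -1.21 (SE 0.728, adjusted p = 0.566). The values for MYOZ2, PLEKHS1 and DNAH9 lay between -0.45 and 0.51 with SE of 0.633 to 1.64, and a 2-fold difference was not detectable at this depth.

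**Figure D3:**
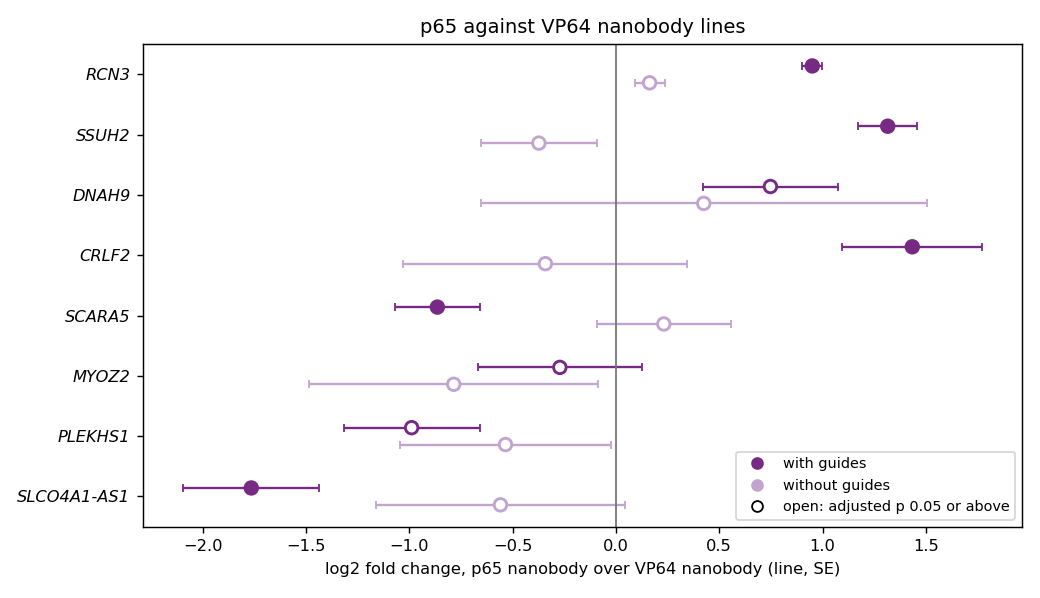
Log2 fold change (horizontal axis) of the p65 nanobody lines over the VP64 nanobody lines for each gene, with guides (dark) and without guides (light), lines for the SE, and open points where the adjusted p was 0.05 or above. With guides, RCN3, SSUH2 and CRLF2 lie to the right at 0.95 to 1.43 and SLCO4A1-AS1 to the left at -1.76, and without guides all points are open.

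Genes around the 8 were examined to see how far along the chromosome the differences reached. Within 100 kb of the start of a member gene 52 other genes are annotated, of which 17 were tested. With VP64, 4 rose and 1 fell with guides, where 40.6% of all genes tested were called in either direction, and with p65, 5 rose and 2 fell, where 38.9% were called. Without replicate B of the p65 line without guides 4 passed with p65. The median log2 fold change of the 17 neighbours was 0.07 with VP64 and 0.13 with p65. DNAH9 has no annotated neighbour in this window, and the 3 of CRLF2 were not tested.

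USP53, which encodes a ubiquitin-specific protease family member and starts 76.8 kb from MYOZ2 on the same strand, had the smallest p among the neighbours. It had 174, 201 and 198 CPM in the VP64 guide line, against 117, 120 and 125 CPM in the VP64 line without guides (log2 fold change 0.66, SE 0.049, adjusted p = 7.08e-10). It had 192, 193 and 179 CPM in the p65 guide line, against 131, 134 and 128 CPM in the p65 line without guides (0.52, SE 0.049, adjusted p = 2.38e-08). Like MYOZ2, it was lower in the lines without guides than in the line without an activation domain, which had 203, 194 and 204 CPM. That fall was 0.73 with VP64 (SE 0.049, adjusted p = 7.06e-11) and 0.62 with p65 (SE 0.049, adjusted p = 9.17e-10), so the guide lines again stood near the line without an activation domain. These comparisons and those of guides share the libraries without guides.

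FLT3LG, which encodes a growth factor for dendritic cells and starts at -53.4 kb from RCN3, rose by 0.90 with p65 (SE 0.192, adjusted p = 0.000678) and differed by 0.47 with VP64 (SE 0.189, adjusted p = 0.0524). Without replicate A of the VP64 guide line that value was 0.56 and passed (adjusted p = 0.0383). OXTR, the oxytocin receptor gene at -24.6 kb from SSUH2, fell by 0.82 with p65 (SE 0.256, adjusted p = 0.0144) and by 0.69 with VP64 (SE 0.263, adjusted p = 0.0405), opposite to SSUH2. It lost its p65 call without replicate A of the p65 guide line (-0.61, adjusted p = 0.0865), and its VP64 call without replicate A or B of either VP64 line (-0.63, -0.54, -0.54 and -0.71, adjusted p = 0.104, 0.164, 0.164 and 0.0655). The ribosomal protein gene RPL13A and PRR12, both near RCN3, passed with p65 with changes of 0.09 and -0.19. RPL13A lost that call without replicate B of the p65 guide line or A or B of the p65 line without guides (0.07 to 0.09). PRR12 lost it without replicate C of the p65 guide line or B or C of the p65 line without guides (-0.14 to -0.18). RPL13A passed with VP64 without replicate C of the VP64 guide line or A of the VP64 line without guides (0.10 and 0.11).

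**Figure D4:**
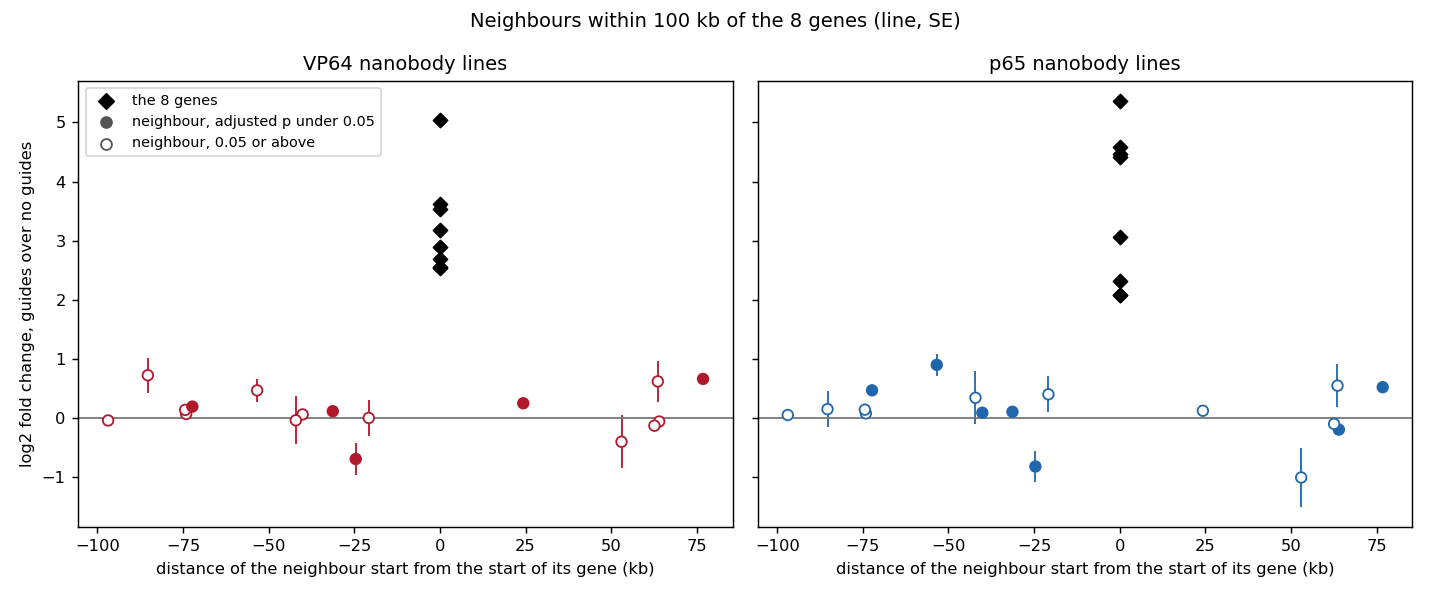
Log2 fold change with guides over no guides (vertical axis, lines for the SE) against the distance in kb of each tested neighbour from the start of its gene, negative upstream, for the VP64 and p65 nanobody lines. The neighbours (circles, filled where the adjusted p is under 0.05) lie between -1.0 and 0.90, and the 8 genes (diamonds at distance 0) lie at 2.08 and above.

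Genes related by family or pathway to the 8 were examined next. Of 76 such genes 53 were tested, and with guides 19 rose and 8 fell with VP64 (40.6% of all genes were called), and 15 rose and 6 fell with p65 (38.9%). Their log2 fold changes ran from -0.88 to 1.69 with VP64 and from -0.84 to 1.3 with p65. In the CREC family of RCN3, 3 of 4 rose in both comparisons, but by little. RCN1 rose by 0.16 with VP64 and 0.23 with p65 (SE 0.037 each, adjusted p = 0.00172 and 3.03e-05), and SDF4 by 0.20 and 0.23 (SE 0.045 each, adjusted p = 0.000827 and 0.000243). RCN2 did not pass (adjusted p = 0.991 and 0.873). Of 10 tested axonemal dynein chains, 3 rose and 1 fell with VP64 and 1 rose with p65. DNAH11, another outer arm heavy chain, rose by 0.41 in both (SE 0.0996 and 0.101, adjusted p = 0.00195 and 0.00255), and the other calls, all with VP64, rested on single libraries. DNALI1 was lost without replicate A of the VP64 line without guides (0.34), and DNAL1 without replicate A of the VP64 guide line (-0.20) or B or C of the VP64 line without guides (-0.30 and -0.29). DNAH6 was lost without any library of the 6 but replicate A of the VP64 guide line (0.95 to 1.41).

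In the TSLP receptor pathway of CRLF2, 2 rose and 3 fell of 12 tested with VP64, and 2 rose and 2 fell with p65. IL7R, the partner chain of CRLF2, fell by 0.79 with VP64 and 0.68 with p65 (SE 0.061 each, adjusted p = 1.26e-09 and 1.05e-08), and the feedback inhibitor SOCS3 fell by 0.88 and 0.77 (SE 0.048 and 0.047, adjusted p = 6.97e-12 and 3.54e-11). Another STAT5-induced inhibitor, CISH, fell by 0.81 with VP64 (SE 0.228, adjusted p = 0.00653) and differed by -0.33 with p65 (SE 0.211, adjusted p = 0.228). The kinase JAK1 rose by 0.21 and 0.24 (SE 0.041 each, adjusted p = 0.000264 and 5.95e-05). TSLP, the ligand of CRLF2, lies outside the rule for named genes and was chosen after its values were seen. It rose by 0.96 with p65 (SE 0.286, adjusted p = 0.0107) and differed by -0.04 with VP64 (SE 0.287, adjusted p = 0.921). The p65 call was lost without replicate B of the p65 guide line (0.84, adjusted p = 0.0514), and the difference between these effects did not pass (1.0, SE 0.406, adjusted p = 0.318).

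Among scavenger receptors and iron handling genes, the group of SCARA5, 6 rose and 1 fell of 9 tested in both comparisons. The lipoprotein receptor SCARB1 rose by 0.49 with VP64 and 0.46 with p65 (SE 0.053 and 0.052, adjusted p = 1.61e-07 and 3.1e-07), the lysosomal CD68 by 0.47 and 0.63 (SE 0.056 each, adjusted p = 5.56e-07 and 1.16e-08), and the ferritin heavy chain gene FTH1 by 0.47 and 0.44 (SE 0.034 each, adjusted p = 4.5e-10 and 1e-09). The transferrin receptor gene TFRC fell by 0.57 and 0.30 (SE 0.045 each, adjusted p = 2.09e-09 and 1.59e-05). Of 12 tested Z-disc and calcineurin genes, the group of MYOZ2, 2 rose and 3 fell in both comparisons. RCAN1, an inhibitor of calcineurin, rose by 0.46 with VP64 and 0.74 with p65 (SE 0.039 each, adjusted p = 3.88e-09 and 2.18e-12), and the Z-disc adaptor PDLIM5 fell by 0.36 and 0.29 (SE 0.046 and 0.045, adjusted p = 1.59e-06 and 2.28e-05). The actinins split, since ACTN4 rose by 0.19 and 0.22 and ACTN1 fell by 0.30 and 0.23 (SE 0.035 to 0.036, all adjusted p at or under 0.000165). MYOZ1 and MYOZ3 were too low to be tested. Of 6 tested organic anion transporters, 3 rose with VP64 and 1 with p65, but apart from SLCO4A1 these rested on single libraries. SLCO2B1 was lost in the p65 lines without any 1 of the 6 libraries (1.04 to 1.53) and in the VP64 lines without replicate A or B of the line without guides (1.20 and 1.49). SLCO3A1 was lost in the VP64 lines without replicate A or B of the guide line (0.17 and 0.15) or B of the line without guides (0.18).

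The 10 genes whose log2 CPM over the 15 libraries was most like the mean standardised profile of the 8 were NFE2L3, RRAGD, SLC2A3, TRAF1, PNRC1, PLEKHA5, TOB1, ITGA3, ELMSAN1 and LZTS2, among the 13054 genes that averaged 1 CPM or more. Their likeness, as Pearson r, ran from 0.993 to 0.979. The 15 points share 5 lines and are not independent, and the r is a description. The 8 genes themselves differed in profile, with r from 0.360 for CRLF2 with SLCO4A1-AS1 to 0.984 for RCN3 with SSUH2. Their mean profile therefore need not be that of each gene. Likeness of profile did not mean likeness of size. The log2 fold change with guides over no guides was 0.69 with VP64 and 0.73 with p65 for the transcription factor NFE2L3 (SE 0.042 each), 1.61 and 1.71 for the TNF receptor adaptor TRAF1 (SE 0.115 and 0.116), and 0.66 and 0.68 for the glucose transporter SLC2A3 (SE 0.048 each). By Spearman correlation 1 of the 10 would be named, and by the 5 line means 4 would be. The single gene most like RCN3 was MOV10 (r 0.993), and the one most like SLCO4A1-AS1 was ETV1 (r 0.980).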

How the data were processed

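RNA was sequenced from 5 MelJuSo lines with 3 libraries each. The authors deposited expected counts, which RSEM estimates for each gene. STAR and hg38 are also named in the submitters' processing notes. TPM values in the same deposited tables are, per the file headers, RSEM abundances scaled for length. The deposited length and effective length columns (another unit, bases) are, per the file headers, mean transcript lengths weighted by abundance. No source used here gives tool versions or strandedness. Gene IDs were matched to GENCODE release 29, and 92 spike-in sequences were left out.

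Expected counts were rounded and fitted in edgeR 4.0.16 (R 4.3.3) with the quasi-likelihood test, 15 libraries, a coefficient for each line, TMM factors (0.983 to 1.014) and filterByExpr at a minimum count of 10, leaving 14961 genes. P-values were Benjamini-Hochberg adjusted over all of them, with a threshold of 0.05. SE was taken from the F statistic. The typical biological coefficient of variation was 5.45%. Code was tested on simulated counts. Depth per library was 15643705 to 23072512 counts, so genes of low level have few counts and wide errors. CPM was computed from rounded counts.

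The 8 genes and the related gene lists were chosen with earlier results of these data known. Named besides the 8 were CD4, neighbours within 100 kb past the threshold in a guide comparison, up to 4 genes per family list by p, and the genes of most similar profile. Some neighbours that meet this rule are not reported here. Alternatives were DESeq2 1.42.0 (Wald test, or its size factors in edgeR), no filter, a mean of at least 1 CPM, the compared groups alone, a replicate block, unrounded counts, a length offset, leaving out each library, and neighbours within 500 kb.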

Additional observations from a re-analysis of the deposited data

Results flagged for a closer look

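The guide effect differed between the p65 and VP64 nanobody lines, by the test of the difference in edgeR, for 2 of the 8 genes. It also differed for 2 of their 53 tested relatives, where 0.956% of all genes tested were called. It was larger with p65 for RCN3 by 0.79 on the log2 scale (0.787231, adjusted p = 1.56e-05) and for SSUH2 by 1.69 (adjusted p = 0.00731). It was also larger with p65 for RCAN1 by 0.27 (0.272512, adjusted p = 0.0116). TFRC fell less with p65, a difference of 0.27 (0.270554, adjusted p = 0.0394). The rule used both guide effects of RCN3 and SSUH2, so their p-values are not independent of the choice. The spike-in sequences, which no comparison uses, had up to 7 counts in a library, and all libraries hold MelJuSo RNA, so there is no control library to set this against.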

How the results depend on the processing

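The higher values of the 8 genes with guides kept their direction and stayed past the threshold in all 219 alternative values. The genes were chosen for this rise and every alternative reuses the same libraries, so this adds no support for it. Of 575 alternative values of the 40 results of the other 5 comparisons, 22 lost a call, none gained one and no called value changed sign. Among results that did not pass, 12 of these values had the other sign. DNAH9 and PLEKHS1 are not tested under the 1 CPM filter, and with the compared groups alone 1 to 5 of the 8 genes are not tested in 4 comparisons. The replicate letters do not pair the libraries (correlations of -0.0875 to 0.0961), and with the replicate block 2 of the 8 genes were called in the difference of guide effects, as without it, and no call among the 8 changed. Among other genes FLT3LG and SLCO1A2 gained a VP64 call with the block and SLCO2B1 lost its p65 call.

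The difference of guide effects called 1 gene (RCN3) under the effective-length offset, where SSUH2 stood at 2.30 (adjusted p = 0.137), and 1 to 2 genes with single libraries left out. That offset also ended the calls of SSUH2 with p65 (0.64), of DNAH9 with VP64 and p65 (-2.70 and -1.43) and of PLEKHS1 with VP64 (-1.17), all over the line without an activation domain, and of CRLF2 for p65 over VP64 with guides (1.38). Under it 2 neighbours and 17 family genes passed with VP64, against 5 and 27, and DNAL1 turned to 0.19 with VP64. SLCO4A1, OXTR, RPL13A, JAK1, ACTN4, DNAH6, DNAH11, DNALI1, SLCO2B1, SLCO3A1 and TFRC lost a call under it too. Within 500 kb, 37 neighbours passed with VP64 and 33 with p65 of 86 tested. With single libraries left out 4 to 8 neighbours passed with p65, the lowest without replicate B of the p65 line without guides. Of the 10 genes of most similar profile, 1 was shared with Spearman correlation and 4 with line means. The causes were not tested. Depth limits the genes of low level, and DNAH9 and CRLF2 had 0 to 9 counts per library without guides.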
